A study of Mus musculus with 2 samples.

Results

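Levels of 8 genes that shorten the life of mRNA or restrain cell division were measured in spinal microglia by scRNA-Seq. The members were chosen by name among the 32285 genes of the count tables: Zfp36, Zfp36l1, Zfp36l2, Zc3h12a, Btg1, Btg2, Tob1 and Tob2. The scRNA-Seq experiment compared microglia from control mice (Eif4ebp1fl/fl, labelled WT) with those of mice that also carried TMEM119CreERT2 (4E-BP1–cKO), in which 4E-BP1, a repressor of cap-dependent translation, is deleted. The floxed allele was shared by both groups, and Cre was driven from the promoter of Tmem119, a microglial gene. Mice were males of 8 to 10 weeks, and 4-OHT, the ligand that activates CreERT2, was given from P4 to P9. Spinal tissue was digested with collagenase at 37°C for 45 minutes before CD45lo CD11b+ CX3CR1+ cells were sorted and captured in droplets. The sources used here do not state how many mice each library held.

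Proteins of the Zfp36 family (Zfp36 encodes tristetraprolin, or TTP) bind AU-rich elements in the 3′ ends of short-lived transcripts, many of which encode cytokines, and recruit the CCR4-NOT complex that removes the poly(A) tail. Regnase-1, the product of Zc3h12a, is an endonuclease that cuts stem-loops in inflammatory transcripts. BTG and TOB proteins also bind the CCR4-NOT deadenylases and are known for restraining proliferation, and in resting lymphocytes Btg1 and Btg2 keep cells quiescent. Several members, Zfp36 and Btg2 among them, are known early response genes, whose own transcripts appear and disappear within minutes to hours of a stimulus such as tissue dissociation.

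There was 1 library per genotype, so no test between genotypes could be made, cells of 1 library are not replicates, and no p-value is given. Counts of unique molecular identifiers (UMIs) carry exact 95% Poisson intervals, shares of cells carry exact (Clopper-Pearson) 95% intervals and ratios carry exact conditional 95% intervals. All of them cover counting error only. A barcode was kept if it had more than 300 genes and less than 5% of its UMIs on mitochondrial genes, which gave 1147 control cells with 4803562 UMIs and 445 4E-BP1–cKO cells with 1734332 UMIs. Median depth was 3053 UMIs per control cell and 2776 per 4E-BP1–cKO cell. All 9 microglial markers were present in both libraries, and 1066 control and 400 4E-BP1–cKO cells had at least 3 of them. Tmem119, whose promoter drives Cre, had 433 CPM (UMI counts scaled to the total of each library) in control and 142 CPM in 4E-BP1–cKO cells. At least 3 markers of oligodendrocytes were seen in 12 cells of the control and 1 cell of the 4E-BP1–cKO library, of endothelial cells in 4 and 0, of erythrocytes in 3 and 0, of border macrophages in 2 and 1, and of T cells in 0 and 1. The targeted gene, Eif4ebp1, had 19.8 CPM (16 to 24.2, 95 UMIs) in control and 29.4 CPM (21.9 to 38.7, 51 UMIs) in 4E-BP1–cKO cells, so its level was not lower in the library labelled 4E-BP1 cKO. Reads from the 3′ end do not check the deletion, since the genotyping assay names an internal exon for the conditional allele.

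The members differed in their own regulatory regions. The first set gives the matches in the promoters of Zfp36, Zfp36l1 and Btg2 to the CRE, AP-1, EGR and CArG box motifs described below, with the motif in capitals. RefSeq promoters (GRCm38.p6, from 250 bases before to 50 bases after the start) were found for 7 of the 8 members. Zfp36l2 had no entry. Both strands were searched for TGACGTCA (the CRE, bound by CREB), TGANTCA (AP-1), GCGNGGGCG (EGR), TATAAA, and the CArG box and NF-kappaB motifs.
Zfp36, EGR match (chr7:28379317-28379341, minus strand): gctacgccGCGGGGGCGcgtcccgg
Zfp36, CArG box (chr7:28379269-28379294, minus strand): aggccgccCCATAAAAGGagaaagct
Zfp36l1, AP-1 match (chr12:80113128-80113150, minus strand): cgcatggcTGATTCAacctcagt
Btg2, CRE match (chr1:134079306-134079329, minus strand): cccaataaTGACGTCAgtgagcga
Btg2, EGR match (chr1:134079270-134079294, minus strand): cctgggagGCGCGGGCGagctggcg
The CArG box, the site of serum response factor, was found in 1.63% of 32851 mouse promoters of the same length, the CRE in 1.79%, EGR in 5.55% and AP-1 in 7.81%. Among the 7 members with a promoter, Zfp36 was the one with a CArG box, Btg2 the one with a CRE and Zfp36l1 the one with an AP-1 match. EGR matches were found in Zfp36 and Btg2. TATAAA was found in Zfp36l1, Btg1 and Tob1 and in 13.6% of all promoters. The NF-kappaB motif was found in 0 of the 7 and in 4.51% of all promoters. A match is a description of these letters and not a measured site.

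The other set shows the AU-rich heptamer TATTTAT, the core that TTP-family proteins are known to bind, in the members' own 3′ untranslated regions. One window is shown for each gene of the Zfp36 family and for Btg2, with the heptamer in capitals and numbered from the first base after the stop codon (canonical transcripts of GENCODE M39, on GRCm39, a later build than that of the count tables).
Zfp36, from base 590: gacgacttTATTTATtgtattaa
Zfp36l1, from base 1150: tcaaaacgTATTTATtgccaaac
Zfp36l2, from base 822: atttaactTATTTATtatcttgt
Btg2, from base 103: tgaagagcTATTTATacatgttt
All 3 members of the Zfp36 family held 3 heptamers each, in 774 bases for Zfp36, 1835 for Zfp36l1 and 2049 for Zfp36l2. Of 20705 mouse genes, 29.5% held at least 1 heptamer and 4.56% held at least 3. Zfp36 had 3.88 heptamers per kilobase, against 0.304 over all genes. Btg2 and Tob2 held 1 each, in 2199 and 4127 bases. Btg1, with 4166 bases, Zc3h12a, with 856, and Tob1, with 780, held 0.

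The first question was how strongly each gene was represented in the sorted cells. Levels are in CPM of all UMIs of the kept cells. Because each captured molecule is counted once from its 3′ end, CPM was not divided by gene length. Btg1 (ENSMUSG00000036478, chr10:96617001-96622813) was the highest member, with 1355 CPM (1322 to 1388) in control and 1312 CPM (1259 to 1367) in 4E-BP1–cKO cells. It ranked 67th and 71st among 11784 genes with at least 20 UMIs. The near-identical pseudogenes Btg1-ps1 and Btg1-ps2 had 0 UMIs in both libraries, and reads that match a copy as well as Btg1 cannot be placed.

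Zfp36 (ENSMUSG00000044786, chr7:28376784-28379228) had 855 CPM (829 to 882) in control and 1131 CPM (1081 to 1182) in 4E-BP1–cKO cells. Btg2 (ENSMUSG00000020423, chr1:134074865-134079155) had 796 CPM (771 to 822) and 1071 CPM (1023 to 1121). Zfp36 and Btg2 were neighbours in the order, with separate intervals in the control library and overlapping ones in the 4E-BP1–cKO library. Zfp36l1 (ENSMUSG00000021127, chr12:80107760-80113013), a paralog that also binds AU-rich elements, had 454 CPM (435 to 473) and 529 CPM (495 to 564). Zfp36l2 (ENSMUSG00000045817, chr17:84183924-84187947) had 352 CPM (336 to 369) and 358 CPM (330 to 387). The order Zfp36, Zfp36l1, Zfp36l2 was the same in both libraries, with no overlap between neighbours.

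The remaining members were lower. Tob2 (ENSMUSG00000048546, chr15:81848270-81858326) had 206 CPM (193 to 219) in control and 220 CPM (198 to 243) in 4E-BP1–cKO cells. Zc3h12a (ENSMUSG00000042677, chr4:125118414-125127881) had 101 CPM (92.2 to 110) and 117 CPM (101 to 134). Tob1 (ENSMUSG00000037573, chr11:94209842-94215495), the lowest member, had 75.4 CPM (67.8 to 83.5) and 80.7 CPM (67.9 to 95.3). Every neighbouring pair in this order other than Zfp36 and Btg2 had separate intervals in both libraries. Together the 8 members took 0.419% of control and 0.482% of 4E-BP1–cKO UMIs.

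Detection followed level. Btg1 had at least 1 UMI in 84.8% (82.6 to 86.9%) of control and 83.6% (79.8 to 86.9%) of 4E-BP1–cKO cells. Zfp36 was detected in 73.1% and 73.5%, and Btg2 in 70.4% and 72.8%. Zfp36l1 was detected in 56.8% and 56.4%, and Zfp36l2 in 55.0% and 52.4%. Tob2 was detected in 38.6% and 39.6%, Zc3h12a in 25.6% and 28.1%, and Tob1 in 20.6% and 20%. These shares depend on depth, and no cell type that should lack the genes was present in numbers that would give the share due to free RNA.

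Every cell was then thinned to 872 UMIs, and shallower ones (89 and 70) were dropped. Zfp36 was detected in 42.8% (39.8 to 45.9%) of control and 51.2% (46.0 to 56.4%) of 4E-BP1–cKO cells. Those intervals were apart by a narrow gap (45.9% against 46.0%) in a single random thinning. They take cells as the unit, so they do not compare genotypes. Btg2 was detected in 42.1% (39.1 to 45.1%) and 48.3% (43.1 to 53.5%), and Btg1 in 60.6% (57.6 to 63.5%) and 55.7% (50.5 to 60.8%), both with overlapping intervals. For the other 5 members the intervals overlapped too, and the shares lay between 3.20% (Tob1, 4E-BP1–cKO) and 30.9% (Zfp36l1, 4E-BP1–cKO).

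**Figure D1:**
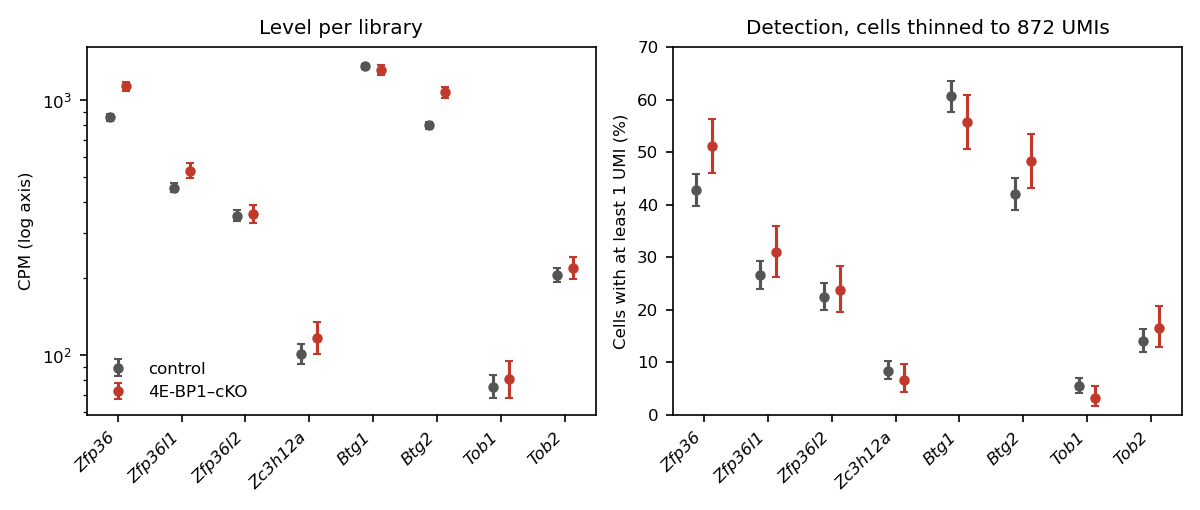
Level of each member in CPM (left, log axis, exact 95% Poisson intervals) and share of cells with at least 1 UMI after thinning to 872 UMIs (right, exact binomial 95% intervals) in the control and 4E-BP1–cKO library. Zfp36 and Btg2 are the members whose CPM intervals lie farthest apart between the libraries (855 against 1131 and 796 against 1071), and Btg1 is the highest in both.

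Cells differed in how much of each transcript they held. In cells thinned to 3000 UMIs (582 control, 205 4E-BP1–cKO), the variance of the UMI count over its mean (Fano factor, close to 1 for sampling noise alone) was 3.13 and 2.71 for Zfp36. It was 2.88 in both libraries for Btg1, 2.10 and 2.86 for Btg2, and 2.54 and 2.04 for Zfp36l1. The median over 4621 and 4609 genes was 1.31 and 1.24. The Fano factor goes up with the mean count, and no comparison with genes of like level was made. Tob1 (1.17 and 1.28) and Zc3h12a (1.38 and 1.12) lay near the median. Single cells held up to 44 UMIs of Zfp36 and 46 of Btg1.

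Between the libraries, 0 of the 8 members differed by over 1.5-fold, the size used for a call. Of the 11784 genes with at least 20 UMIs, 4.32% were over 1.5-fold higher and 11.3% over 1.5-fold lower in the 4E-BP1–cKO library. Among the 4887 genes with at least 200 UMIs, a limit that every member passed, these shares were 1.19% and 3.21%. The ratio of CPM (4E-BP1–cKO over control) was 1.35 (1.27 to 1.42) for Btg2 and 1.32 (1.25 to 1.4) for Zfp36. On the log2 scale these are differences of 0.43 and 0.40, which 1035 and 1142 of the 11784 genes exceeded. Genes with few UMIs, whose ratios vary more, are among them. Zfp36l1 was next with a ratio of 1.17 (1.08 to 1.26), and Zc3h12a had 1.16 (0.979 to 1.37).

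For 5 members the interval held 1. They were Zc3h12a, Tob1 (1.07, 0.875 to 1.31), Tob2 (1.07, 0.945 to 1.20), Zfp36l2 (1.02, 0.926 to 1.12) and Btg1 (0.969, 0.923 to 1.02). The median log2 ratio was 0.15 over the members and -0.05 over all genes tested. Both members with the highest ratios are known early response genes, and among their paralogs the interval of Zfp36l1 lay above 1 while those of Zfp36l2 and Btg1 held 1. The 12 early genes described below also took more of the 4E-BP1–cKO library (1.99% of UMIs, against 1.51% in control).

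To see how the members varied with the state of the cell, cells of each library were divided into tertiles by the share of UMIs on 12 early response genes (Fos, Fosb, Jun, Junb, Egr1, Egr2, Egr3, Ier2, Ier5, Atf3, Nr4a1 and Dusp1), a list that holds no member. The tertiles held 383, 382 and 382 control cells and 149, 148 and 148 4E-BP1–cKO cells. Their limits differed between the libraries. The bottom tertile reached an early-gene share of 0.859% in control and 1.15% in 4E-BP1–cKO cells, and the top one began at 1.57% and 2.11%. In both libraries 6 of the 8 members were over 1.5-fold higher in the top than in the bottom tertile, against 4.38% of 6592 genes. None was over 1.5-fold lower, against 6.6%.

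Zfp36 showed the widest range. In control cells it had 376 CPM (344 to 410) in the bottom, 716 CPM (673 to 760) in the middle and 1300.1 CPM (1250 to 1352) in the top tertile. In 4E-BP1–cKO cells it had 542 CPM (473 to 619), 926 CPM (853 to 1004) and 1661 CPM (1567 to 1760). The intervals of neighbouring tertiles did not overlap in either library. Top over bottom was 3.46-fold (3.15 to 3.81) in control and 3.07-fold (2.65 to 3.56) in 4E-BP1–cKO cells, which 23 and 87 of 6592 genes exceeded. On all UMIs, its detection went from 56.7% to 86.4% of control and from 56.4% to 86.5% of 4E-BP1–cKO cells. Cells of the top tertile were deeper, so these shares were not compared at equal depth.

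Btg2 had the same order. Its level in control cells was 429 CPM (396 to 465), 790.4 CPM (746 to 837) and 1059.6 CPM (1014 to 1106) from the bottom to the top tertile. In 4E-BP1–cKO cells it was 648 CPM (572 to 732), 1004 CPM (928 to 1085) and 1377 CPM (1291 to 1468). Top over bottom was 2.47-fold (2.25 to 2.71) and 2.12-fold (1.85 to 2.45), which 75 and 317 genes exceeded.

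The other members that passed in both libraries had smaller ratios. Top over bottom was 1.77-fold (1.35 to 2.34) in control and 1.95-fold (1.17 to 3.39) in 4E-BP1–cKO cells for Tob1. It was 1.61-fold (1.37 to 1.90) and 2.12-fold (1.54 to 2.96) for Tob2, which shares with Tob1 the binding of deadenylases. Zfp36l2 had 1.61-fold (1.42 to 1.82) and 1.58-fold (1.26 to 1.99), and Zfp36l1 had 1.51-fold (1.36 to 1.69) and 1.83-fold (1.52 to 2.22). Zfp36l1 in control cells was the member just above the limit.

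Btg1 and Zc3h12a did not pass. Btg1 had 1141 CPM in the bottom and 1489 CPM in the top tertile of control cells, a ratio of 1.30 (1.23 to 1.39), and 1232 and 1491 CPM in 4E-BP1–cKO cells, a ratio of 1.21 (1.09 to 1.35). Zc3h12a had ratios of 1.33 (1.07 to 1.68) and 1.44 (0.955 to 2.21). Btg1 thus had the highest level of the members and the smallest ratio in this comparison. That place depended on depth. In cells thinned to 3000 UMIs its log2 ratio was 0.39 in control and 0.67 in 4E-BP1–cKO cells, where Tob2 had 0.62.

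Depth and ribosomal content moved with the tertiles. Median depth was 2826 UMIs in the bottom and 4320 in the top tertile of control cells, and 1884 and 3873 in 4E-BP1–cKO cells. Cells with under 3% of UMIs on ribosomal protein genes made up 69.2% of the bottom and 35.3% of the top tertile in control, and 65.8% and 26.4% in 4E-BP1–cKO cells. Zfp36 and Btg2 remained over 1.5-fold higher in both libraries when cells were thinned to 872 or 3000 UMIs, when cells were split at the median and when only cells with at least 3% ribosomal UMIs were used. The other 4 members passed in 1 or 2 of these 4 alternatives, Zc3h12a passed at 3000 UMIs alone, and the number of members that passed was 3, 5, 3 and 3, against 6.45%, 6.86%, 2.47% and 4.67% of the genes tested in each.

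**Figure D2:**
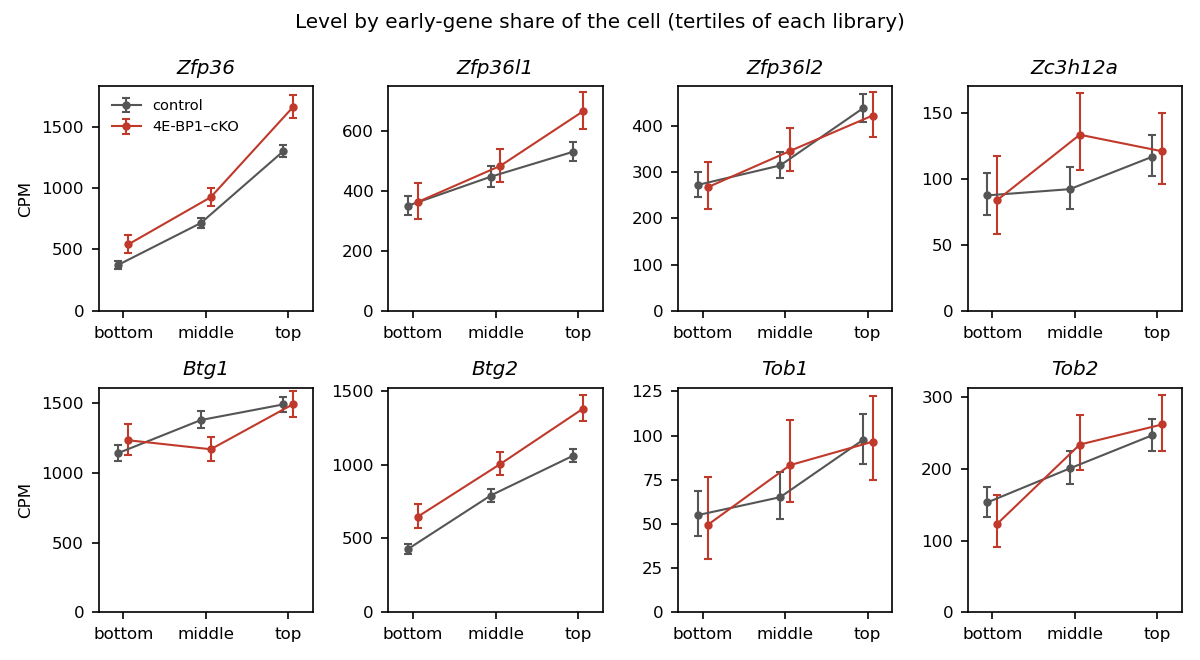
CPM of each member (vertical axes, from 0) in the bottom, middle and top tertile of cells by early-gene share in the control and 4E-BP1–cKO library, with exact 95% Poisson intervals. Zfp36 goes from 376 to 1300.1 CPM in control and from 542 to 1661 CPM in 4E-BP1–cKO cells, and Btg1 varies least in proportion. The tertiles were set within each library, so the same tertile covers different early-gene shares (top from 1.57% in control and from 2.11% in 4E-BP1–cKO cells).

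For Zfp36 and Btg2 the same relation was seen in single cells of equal depth. At 3000 UMIs the correlation of a member's UMIs with those of the early list, given as a description over 582 control and 205 4E-BP1–cKO cells that share a library, was 0.52 and 0.53 for Zfp36 and 0.42 and 0.31 for Btg2. For the other 6 members it was between 0.09 and 0.24. Among these it was highest for Btg1 (0.19 and 0.24), which had not passed between the tertiles. Zfp36 and Btg2 correlated with each other at 0.26 and 0.17. The place of Btg1 depended on depth. At 872 UMIs (1058 control and 375 4E-BP1–cKO cells) its correlation with the early list was 0.08 and 0.04, below that of Zfp36l2 (0.11 and 0.08). At that depth Zfp36 had 0.31 and 0.36, and Btg2 had 0.22 and 0.20. Low counts lower a correlation, and members of unlike level were not matched for it.

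Cells were also grouped by how much of their UMIs fell on 85 ribosomal protein genes, into under 3% (657 control and 212 4E-BP1–cKO cells), 3 to under 8% (346 and 144) and 8% and over (144 and 89). These are ranges of a score and not cell types, and 85 control and 28 4E-BP1–cKO cells lay between 2.5% and 3.5%. The cells under 3% were shallower (median 2354 UMIs in control, against 5193 and 6520), had more of the nuclear RNA Malat1 (4.68% of UMIs, against 3.08% and 2.14%) and fewer early-gene UMIs (1.12%, against 1.78% and 1.73%). What part these differences have in the levels of the members was not tested.

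Of the 8 members, 1 was over 1.5-fold lower in cells under 3% than in the rest in both libraries, against 15.7% of 8015 genes, and 0 were over 1.5-fold higher, against 11.4%. That member was Zfp36. It had 625 CPM (589 to 661) under 3%, 996 CPM (951 to 1042) at 3 to under 8% and 1013 CPM (952 to 1076) at 8% and over in control cells. In 4E-BP1–cKO cells it had 777 CPM (706 to 853), 1276 CPM (1193 to 1364) and 1337 CPM (1236 to 1445). The upper classes did not differ beyond their intervals in either library, and both were above the lowest. The ratio of cells under 3% to the rest was 0.624 (0.582 to 0.668) and 0.597 (0.536 to 0.665), and with the limit moved to 4% the ratio no longer reached 1.5-fold.

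Of the other members, 6 also lay lower in cells under 3% in both libraries, by less than 1.5-fold in at least 1 of them. Tob1 had ratios of 0.679 and 0.639, Tob2 of 0.685 and 0.707, and Zfp36l1 of 0.725 and 0.646. Btg2 had ratios of 0.753 and 0.706, Zfp36l2 of 0.837 and 0.774, and Btg1 of 0.854 and 0.750, with every interval of these 6 members below 1. Zc3h12a differed in direction, with 0.873 (0.721 to 1.06) in control and 1.29 (0.961 to 1.73) in 4E-BP1–cKO cells, both holding 1. The median log2 difference over all genes tested was 0.11 in control and 0.10 in 4E-BP1–cKO cells. The size of the difference for Btg1 depended on how UMIs were combined. From summed UMIs its log2 ratio was -0.228 in control and -0.415 in 4E-BP1–cKO cells. From the mean over cells of CPM it was -0.055 and -0.113.

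Between the upper classes the paralogs went apart. Cells with 8% and over, compared with 3 to under 8%, had less Zfp36l2 (267 against 436 CPM in control, ratio 0.614, 0.534 to 0.704, and 318 against 434 CPM in 4E-BP1–cKO cells, ratio 0.733, 0.599 to 0.893). Btg2 was also lower there, at ratios of 0.858 (0.789 to 0.932) and 0.760 (0.679 to 0.849). The median log2 difference over all 6695 genes tested was itself -0.15 in control and -0.20 in 4E-BP1–cKO cells. Btg2 had -0.22 and -0.40, with 3705 and 4418 genes higher, so in control it lay near the middle of all genes. Zfp36l2 had -0.70 and -0.45, with 5810 and 4624 genes higher. Btg1 was higher, at 1.20 (1.13 to 1.28) and 1.10 (0.995 to 1.21), the latter holding 1. Zfp36 and Zfp36l1 had ratios between 0.864 and 1.11, and their intervals all held 1. By the 1.5-fold rule in both libraries, 0 members passed in either direction, against 3.9% of 6695 genes higher and 8.14% lower.

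**Figure D3:**
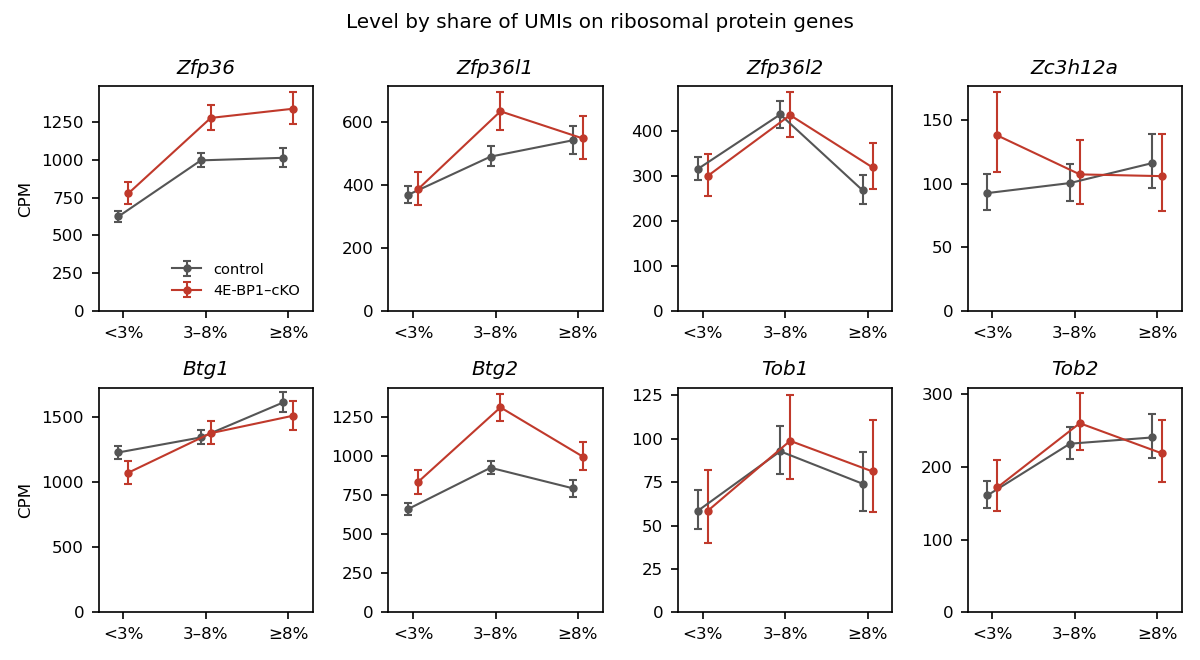
CPM of each member (vertical axes, from 0) in cells that had under 3%, 3 to under 8% and 8% or more of UMIs on ribosomal protein genes in the control and 4E-BP1–cKO library, with exact 95% Poisson intervals. Zfp36 is lowest under 3% (625 CPM in control, 777 CPM in 4E-BP1–cKO cells), and Zfp36l2 is highest in the middle class (436 and 434 CPM).

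Unsupervised clusters were made without the 8 members and are numbered by size. All 9 clusters held cells of both libraries. Their 3 leading genes are given for those in which a member was highest or lowest. Cluster 3 (Enkur, Med30, Fos) held the most early-gene UMIs (2.42% in control, 2.78% in 4E-BP1–cKO cells). It was the highest cluster for Zfp36, with 1423 CPM (1348 to 1501) in control and 1821 CPM (1693 to 1955) in 4E-BP1–cKO cells, and for Btg2, with 1061 CPM (996 to 1129) and 1508 CPM (1392 to 1630). Zfp36l2 was highest there too, at 499 and 527 CPM. In cluster 3, Zfp36 was detected in 93.9% of control and 92.7% of 4E-BP1–cKO cells, at median depths of 6087 and 4788 UMIs.

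Cluster 6 (Cxcl2, Map2k3os, Mt2) was the highest for Zfp36l1 (593 and 635 CPM) and Tob2 (309 and 341 CPM) in both libraries. In this cluster Btg1 had 1650.4 CPM (1570 to 1734) in control, its highest level, and 1508 CPM in 4E-BP1–cKO cells, where its level in cluster 3 was 1534 CPM. It was the deepest cluster, with median UMIs of 8908 and 7713. Cluster 2 (Bicdl2, Slc24a1, Raver2) was the lowest for Zfp36l2 (198 and 187 CPM) and, where both libraries had at least 20 cells, for Btg2 (423 and 532 CPM). Cluster 9 (Gm1673, Apoe, Eef1akmt4), with 25 and 17 cells, had 458 and 402 CPM of Btg2. Cluster 7 (Gm5420, Slc35a1, Fkbp7) was the lowest for Zc3h12a (49.0 and 54.9 CPM) and Tob1 (41.7 and 29.9 CPM), although its cells were deep (median 6309 and 5852 UMIs).

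The libraries did not always have the same extreme cluster. Zfp36 was lowest in cluster 1 (Gm35188, Tmcc3os, Gm17106) in control cells, at 472 CPM (417 to 532), where the 4E-BP1–cKO cells of the cluster had 856 CPM (700.4 to 1037). In the 4E-BP1–cKO library it was lowest in cluster 8 (P4htm, Mroh3, Eldr), at 540.4 CPM (367 to 767), over 22 cells. Btg1 was lowest in cluster 8 in both, at 995 and 697 CPM. Zc3h12a was highest in cluster 6 in control (144 CPM) and in cluster 4 (Gm10563, Gm43221, Gm47827) in 4E-BP1–cKO cells (209 CPM, over 27 UMIs). Cluster 5 (Cxcl10, Bsg, Zfp280c), the shallowest at 760 UMIs per control cell, was an extreme for none of the members.

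For each member the span from the lowest to the highest cluster was below the median over genes in both libraries. It was 3.02-fold in control and 3.37-fold in 4E-BP1–cKO cells for Zfp36, and 1.66-fold and 2.20-fold for Btg1, the member with the narrowest span in control. Wider spans than that of Btg1 were found in 4794 and 4453 of 4887 genes with at least 200 UMIs, and wider spans than that of Zfp36 in 3085 and 3032. In 4E-BP1–cKO cells Tob1 (4.10-fold) and Zc3h12a (3.80-fold) had the widest spans of the members. They lay near the median, with 2487 and 2676 genes wider. Low counts widen a span, and most members have more UMIs than most of these genes. Tob1 and Zc3h12a had the fewest UMIs of the members (362 and 485 in control, 140 and 203 in 4E-BP1–cKO cells).

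**Figure D4:**
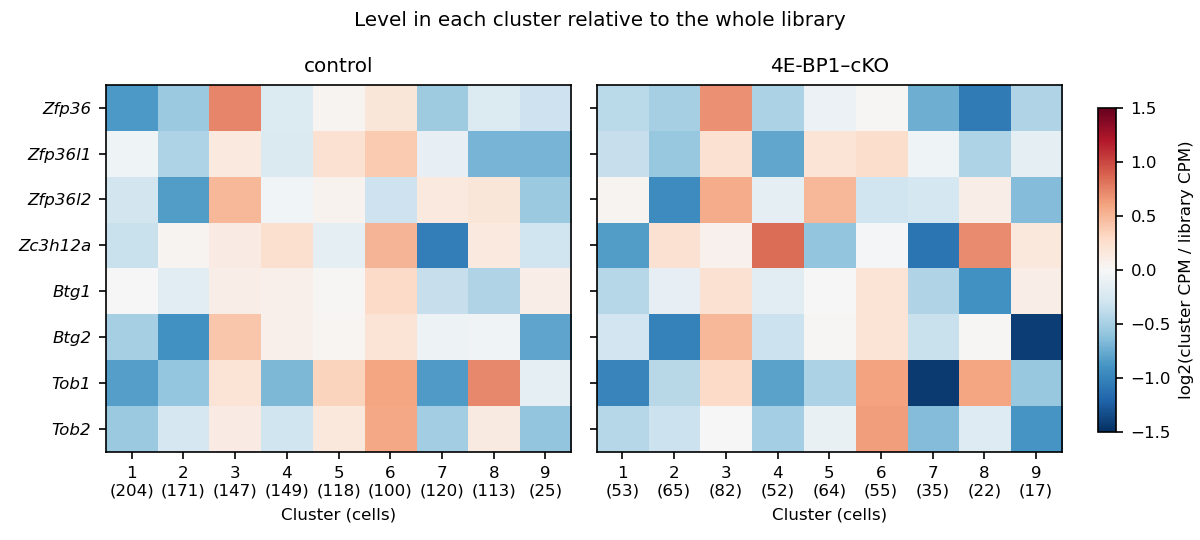
Level of each member (rows) in each of 9 clusters (columns, with the number of cells) as the log2 of the cluster's CPM over that of the whole library, for control (left) and 4E-BP1–cKO (right). Cluster 3 is the highest for Zfp36, Zfp36l2 and Btg2 in both libraries, and cluster 7 is the lowest for Zc3h12a and Tob1.

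Genes with the most similar pattern were sought over the 17 units of 1 cluster in 1 library with at least 20 cells, by Pearson correlation of log2(CPM + 1) among the 4887 genes. The units share libraries and differ in depth, so the correlations are a description. Zfp36 was most like Ppp1r15a (0.88), Ccl3 (0.85) and Nfkbia (0.85), which encode a stress-induced phosphatase subunit, a chemokine and the inhibitor of NF-kappaB. Btg2 was most like Jun (0.89), Ddx5 (0.86) and Stmn1 (0.84), and Zfp36l2 like Jun (0.83), Klf2 (0.83) and Nfam1 (0.82). Jun, a subunit of AP-1, thus headed the lists of both Btg2 and Zfp36l2.

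Tob2 was most like Hexim1 (0.91), Hspa5 (0.89) and Egr1 (0.87), and Tob1 like Midn (0.87), Oat (0.86) and Hspa2 (0.84). Zc3h12a was most like Vmp1 (0.85), Fosl2 (0.85) and Rabgef1 (0.82), Zfp36l1 like Spty2d1 (0.87), Scaf11 (0.85) and Atxn7l3b (0.80), and Btg1 like Dbi (0.82), Bcl2a1d (0.81) and Ddx21 (0.81). With the summed early list the correlation over the units was 0.87 for Zfp36, 0.81 for Tob2, 0.77 for Btg2, 0.72 for Tob1 and between 0.36 (Btg1) and 0.55 (Zfp36l1) for the other 4. Between members it was highest for Tob1 and Tob2 (0.81) and for Zfp36l2 and Btg2 (0.78), and that of Btg1 and Btg2 was 0.04. In single cells at 3000 UMIs the correlations were much lower for the first pairs. Tob1 and Tob2 had 0.04 in control and 0.08 in 4E-BP1–cKO cells, Zfp36l2 and Btg2 0.16 and 0.17, and Btg1 and Btg2 0.14 and 0.05.

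The difference between the libraries was then examined within like cells. Within the classes of ribosomal share, the ratio of Zfp36 (4E-BP1–cKO over control) was 1.24 (1.11 to 1.39), 1.28 (1.18 to 1.39) and 1.32 (1.20 to 1.46) from the lowest to the highest class. That of Btg2 was 1.26 (1.13 to 1.4), 1.42 (1.31 to 1.54) and 1.26 (1.12 to 1.41). Every interval lay above 1. Both libraries had at least 20 cells in 8 clusters. Among these, Btg2 was higher in 4E-BP1–cKO cells in 8 (1.02 to 1.57) with 5 intervals above 1, and Zfp36 in 7 (0.730 to 1.82 over the 8) with 4 intervals above 1. Btg1 was higher in 1 of the 8 (0.701 to 1.06) and had 3 intervals below 1.

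Among cells with a like share of early genes, the ratios of Zfp36 were nearer to 1. When cells of both libraries were divided at the same limits of early-gene share, the ratio of Zfp36 was 1.18 (0.987 to 1.4) under 1% (462 control and 130 4E-BP1–cKO cells), 1.10 (0.994 to 1.21) at 1 to under 2% (456 and 153) and 1.06 (0.984 to 1.14) at 2% and over (229 and 162). All 3 intervals held 1. Btg2 had ratios of 1.30 (1.10 to 1.51), 1.23 (1.12 to 1.35) and 1.09 (1.01 to 1.18), all above 1. Averaged over these ranges, the log2 ratio was 0.15 for Zfp36 and 0.27 for Btg2, compared with 0.40 and 0.43 over all cells. Within the ranges the early-gene shares of the libraries were close but not equal, for example 2.85% in control and 2.99% in 4E-BP1–cKO cells in the highest.

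Zfp36l1 had ratios of 1.02, 0.966 and 1.18 (1.05 to 1.33) from the lowest to the highest range, the last with an interval above 1. Btg1 had 1.0, 0.872 (0.804 to 0.944) and 0.945, the middle one with an interval below 1. For the other 4 members the intervals held 1 in every range. This division was added after the data had been seen.

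**Figure D5:**
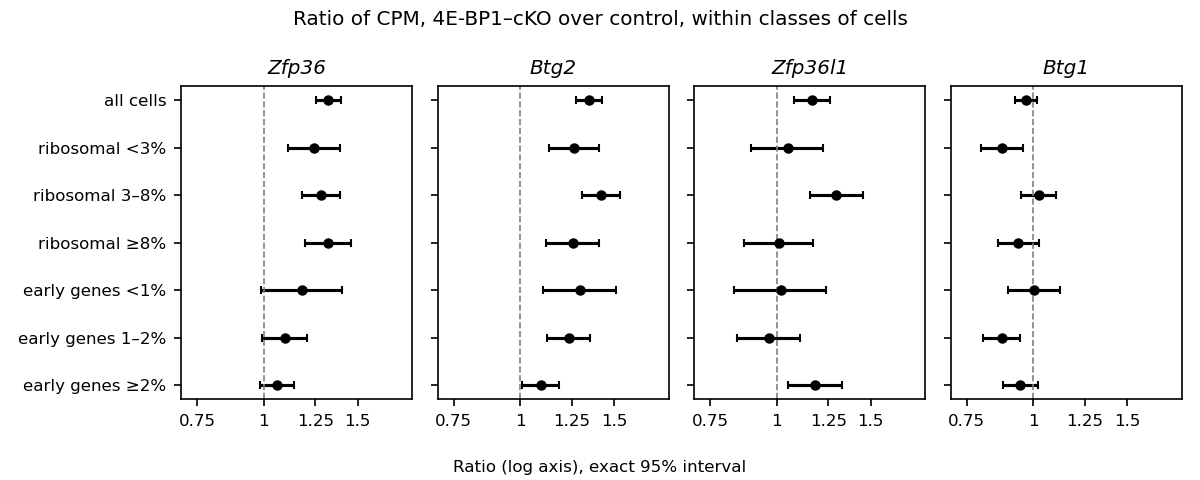
Ratio of CPM, 4E-BP1–cKO over control (horizontal log axis, exact 95% intervals), for Zfp36, Btg2, Zfp36l1 and Btg1 over all cells, within 3 classes of ribosomal protein share and within 3 ranges of early-gene share with the same limits in both libraries. The ratio of Zfp36 is 1.32 over all cells and between 1.06 and 1.18 within the early-gene ranges, and that of Btg2 stays above 1 throughout.

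The machinery on which the members act was described from lists of genes that take part in mRNA decay. The counts between libraries in this and the later lists stand beside 4.32% higher and 11.3% lower among all genes with at least 20 UMIs. With at least 200 UMIs these shares were 1.19% and 3.21%. Among 17 genes of the CCR4-NOT and PAN2-PAN3 deadenylases and their poly(A)-binding partners, 0 were over 1.5-fold higher and 2 over 1.5-fold lower in the 4E-BP1–cKO library, with a median log2 ratio of -0.13. They were Pabpc4, a poly(A)-binding protein (100.3 and 60.5 CPM, ratio 0.603, 0.484 to 0.747), and the deadenylase subunit Cnot6 (37.1 and 23.1 CPM, ratio 0.622, 0.430 to 0.881). Pabpc1, the gene of the list with the most UMIs, had a ratio of 0.786 (0.730 to 0.845), and Pan3 of 0.810 (0.733 to 0.893). These 4 were named for their ratio or their UMIs. The share of the list that was lower was near the 11.3% of all genes with at least 20 UMIs. Pabpc4 and Cnot6 both had at least 200 UMIs, where 3.21% of all genes were lower.

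In the 15 genes of decapping and decay from the 5′ end, 2 were higher (Dcp2, 1.60, and Lsm3, 1.58) and 1 lower (Edc3, 0.478), each on fewer than 200 UMIs and named after their values were seen. Those with more UMIs had ratios nearer to 1: Ddx6, a helicase, had 1.09 (0.982 to 1.21), Patl1 1.19 (1.0 to 1.4) and Lsm4 1.16 (0.853 to 1.57). Of 12 tested genes of the RNA exosome, 0 passed in either direction, with a median log2 ratio of 0.14. Among 15 tested genes of other proteins that bind AU-rich elements or stem-loops, 1 was higher, Zc3h12d, on 15 and 10 UMIs, named after its values were seen. Zc3h12c, a paralog of Zc3h12a, had 198 and 277 CPM, a ratio of 1.4 (1.25 to 1.56). In both libraries its level was above that of Zc3h12a. Hnrnpd (AUF1) had a ratio of 1.32 (1.13 to 1.55) and Celf1 of 0.947 (0.833 to 1.07).

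The p38-MK2 pathway phosphorylates TTP and thereby restrains its action. The list held 10 genes, of the kinases of the pathway, of the phosphatase PP2A and of 14-3-3 proteins. Of these, 0 were over 1.5-fold higher and 1 lower. The lower one was Ppp2cb, a catalytic subunit of PP2A (36.6 and 22.5 CPM, ratio 0.614, 0.422 to 0.872). Mapkapk2, which encodes MK2, had 429 and 624 CPM, a ratio of 1.45 (1.35 to 1.57). Ywhaz, which encodes a 14-3-3 protein, had a ratio of 1.02 (0.928 to 1.13).

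Transcripts known as targets of TTP or Regnase-1 differed more. Of 15 tested genes, 5 were over 1.5-fold higher in the 4E-BP1–cKO library and 1 lower, with a median log2 ratio of 0.53. Among all genes with at least 20 UMIs, 4.32% were higher and 11.3% lower, and with at least 200 UMIs 1.19% and 3.21%. The chemokine gene Ccl4 had 3082 and 5065 CPM, a ratio of 1.64 (1.60 to 1.69). Ccl3 had 959 and 1589 CPM, a ratio of 1.66 (1.58 to 1.74), and Cxcl2 had 198 and 402 CPM, a ratio of 2.03 (1.83 to 2.24). Ccl2 (1.56) and Cxcl1 (1 and 34 UMIs) were the others that were higher, and Myc (0.646) was lower. The last 3 were named after their values were seen.

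Target genes, like the members, were higher in cells with a high early-gene share. Of 13 target genes tested between the early-gene tertiles, 10 were over 1.5-fold higher in the top tertile in both libraries and 0 lower, and all 12 early genes were, which the division itself fixes. The 5 lists of deadenylases, decapping, exosome, other binding proteins and the p38-MK2 pathway had 13, 13, 5, 14 and 10 genes tested. Of these, 1, 1, 0, 0 and 0 were higher in both libraries, and 2, 1, 0, 1 and 1 were lower. Over all 6592 genes tested, 4.38% were higher and 6.6% lower. For Ccl3 the log2 difference was 1.14 in control and 1.30 in 4E-BP1–cKO cells, against 1.79 and 1.61 for Zfp36.

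Of the 12 early genes, 4 were over 1.5-fold higher in the 4E-BP1–cKO library and 0 lower, with a median log2 ratio of 0.49. The shares of all genes with at least 20 UMIs were 4.32% and 11.3%. Ier2 had 328 and 680 CPM, a ratio of 2.07 (1.92 to 2.23), and Egr2 had 98.5 and 178 CPM, a ratio of 1.81 (1.56 to 2.09). Egr1 (1.55) and Egr3 (1.74) were the others, named after their values were seen. Jun, with 3961 and 4467 CPM, had a ratio of 1.13 (1.10 to 1.16), and Junb of 1.37 (1.33 to 1.41). Over the 12 early genes the log2 ratio ran from -0.07 to 1.05. That wide range held the ratio of every member (-0.05 to 0.43), so it does not set Zfp36 (0.40) and Btg2 (0.43) apart.

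Among genes of cell cycle entry and arrest, on which BTG proteins are known to act, 1 of 14 tested was over 1.5-fold higher (Mcm5, on 12 and 14 UMIs) and 3 were lower, with a median log2 ratio of -0.01. The shares of all genes with at least 20 UMIs were 4.32% and 11.3%. Ccnd3, which encodes cyclin D3, was the lower one with many UMIs, at 215 and 127 CPM, a ratio of 0.594 (0.511 to 0.687). Mcm5, Ccnd2 (0.544) and Cdkn2c (23 and 1 UMIs) were named after their values were seen. Ccnd1 had a ratio of 1.23 (1.01 to 1.48) and Cdk6 of 1.06 (0.959 to 1.17). At least 3 markers of proliferating cells were detected in 2 control and 0 4E-BP1–cKO cells.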

How the data were processed

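The authors deposited 1 matrix of UMI counts for each library, which came from Cell Ranger 8.0.1 (file headers) and the mm10 genome, with 1216 control and 474 4E-BP1–cKO barcodes and none in common. The sources used here do not state whether intronic reads were counted. Barcodes with over 300 genes and under 5% mitochondrial UMIs were kept. The study also removed doublets with scDblFinder, whereas here doublets were kept and Scrublet (scanpy 1.11.5), which called 4 control and 11 4E-BP1–cKO cells (11 and 2 predicted), served as an alternative. The study reported fewer cells in both groups than remained without the Scrublet calls (1143 and 434), so its set of cells was not reproduced. UMIs were summed per library or class of cells and scaled to CPM, and log2 ratios used a pseudocount of 1 CPM. Clusters came from Seurat 5.3.0 (SCTransform, RPCA, 20 principal components, resolution 1.4). Intervals were computed with scipy 1.17.1 and Python 3.11.15. The direction of ratios and the coverage of their intervals were tested on simulated Poisson counts, which lack the extra spread between cells. Thinning was checked on the 4E-BP1–cKO cells, and the other steps were not tested in this way. Members and gene lists were chosen with earlier results of these data known. Beside the members, the genes named were the 3 with the most similar pattern, the 2 of each list with the most UMIs and the 2 with the largest ratio among those with at least 200 UMIs, the 3 leading genes of clusters, Eif4ebp1 and the microglial markers. Genes outside this rule are marked in the text as named after their values were seen. The alternatives were other totals (TMM, without ribosomal and mitochondrial genes), pseudocounts, filters, thinning, class limits, cell averages and clusterings.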

Additional observations from a re-analysis of the deposited data

How the results depend on the processing

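No paired analysis was possible because there was 1 library per genotype, and no replicate could be left out. Over the 11 alternatives, 0 members differed by over 1.5-fold between the libraries. The log2 ratio stayed between 0.27 and 0.47 for Btg2 and between 0.15 and 0.44 for Zfp36, whose lowest values came from common ranges of early-gene share, and it changed sign for Zfp36l2, Btg1, Tob1 and Tob2. The share of genes over 1.5-fold apart was 15.6%, but 24.4% with at least 1 UMI and 4.40% with at least 200. In the ribosomal share comparison the count of lower members was 1, but 2 with a limit of 2%, 0 with a limit of 4% and 3 when genes of ribosomal proteins and mitochondria were left out of the total. The share of all genes was found for the main limit alone (15.7% of 8015), so the other counts cannot be set against one. In the early-gene comparison the count of higher members was 6, but 3 when split at the median, when thinned to 872 UMIs and with only cells of at least 3% ribosomal share. Members over 2-fold apart between clusters in both libraries were 7, but 4 at a resolution of 0.8. Such spans were common at the main resolution. The median log2 span over 4887 genes was 1.85 in control and 2.03 in 4E-BP1–cKO cells, and 2-fold is a log2 span of 1. With at least 200 UMIs, the genes past 1.5-fold were 0 in place of 3 for decapping, 0 in place of 1 for other binding proteins and 1 in place of 4 for the cell cycle. Depth limited detection: over the alternatives, 50 shares of cells stayed within their interval and 30, thinned ones among them, did not. Thinning to 3000 UMIs and averaging over tertiles or common ranges of early-gene share were chosen after seeing the data.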
